A study of Homo sapiens with 2 samples.

Results

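The STEAP family consists of 4 genes, STEAP1, STEAP2, STEAP3 and STEAP4, and all 4 were found by symbol among the 47236 gene symbols of the tables, of which 15434 were expressed at 1 RPKM (reads per kilobase of transcript, scaled to library size) or more in a library. C4-2B cells, an established line derived from LNCaP that models androgen-independent, bone-metastatic prostate cancer, were profiled after 2.5 µM MA4-022-1 or after DMSO as vehicle. How long the cells were exposed is not stated in the labels. The labels call MA4-022-1 a dual inhibitor of kinases and of BET proteins, which read acetylated chromatin through bromodomains. Libraries were made from total RNA after removal of ribosomal RNA and sequenced as single reads of 50 bp. Each group held 1 library of 1 line, so every difference rests on a single pair of libraries, without a replicate check or a p-value. The stated aim was to find growth genes of castration-resistant prostate cancer within reach of the compound.

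STEAP proteins are multi-pass membrane proteins that reduce ferric iron and cupric copper, so that transporters can move the metals across membranes. STEAP2, STEAP3 and STEAP4 bind NADPH in a cytosolic oxidoreductase domain and pass its electrons through FAD and a haem to the metal, whereas STEAP1 lacks that domain and can receive electrons from a partner of the family. STEAP1 and STEAP2 are known as abundant in prostate epithelium and prostate tumours, and STEAP1 is a target of antibody-based therapies there. STEAP3 is best known, from mice, as the endosomal ferrireductase of red cell precursors, and STEAP4 for its response to inflammatory signals and androgen.

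The family differed widely in level and did not change as a block. STEAP2 was the highest member and stood 1.75-fold higher with MA4-022-1, at 419 RPKM against 240 RPKM in the vehicle library. STEAP1 was close to its vehicle level, at 97.8 against 120 RPKM. STEAP3 was scarce and lower with MA4-022-1, at 1.02 against 1.85 RPKM, and STEAP4 stayed below the expression limit in both libraries. None of the 3 expressed members was 2-fold apart on the scale of RPKM + 1, a limit that 17.3% of all expressed genes and 13.6% of expressed protein-coding genes passed in one direction or the other. The order of levels, STEAP2 above STEAP1 above STEAP3 above STEAP4, was the same in both libraries. In bulk RNA of this kind, fewer cells that express a gene and less of its RNA per cell cannot be told apart.

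**Figure D1:**
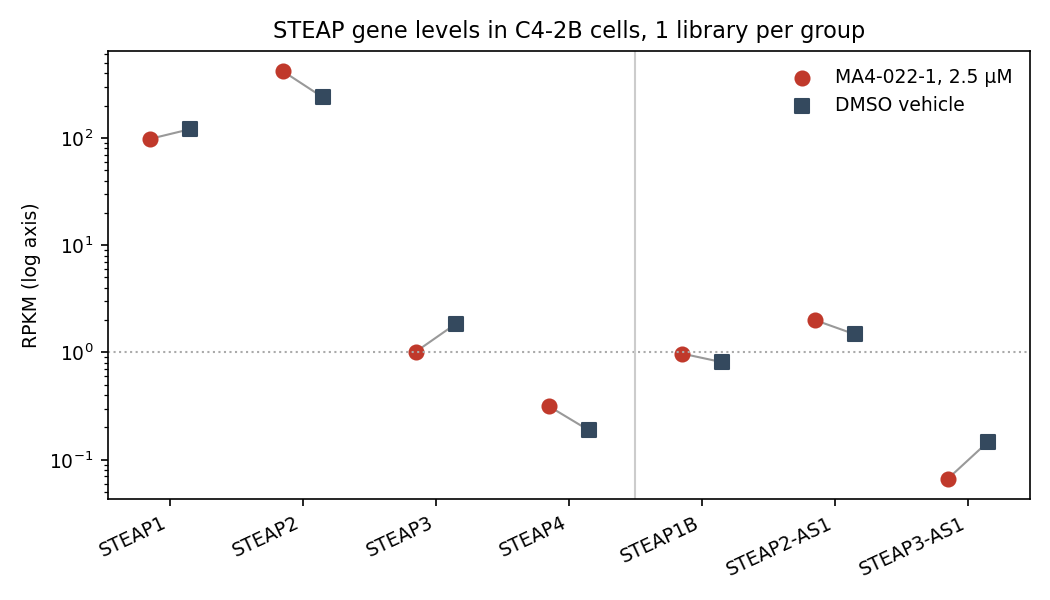
RPKM on a log axis for the 4 STEAP genes (left of the vertical line) and 3 related symbols, with red circles for the MA4-022-1 library and dark squares for the vehicle library, 1 library each. STEAP2 reached 419 against 240 RPKM and STEAP1 97.8 against 120 RPKM, while STEAP3 and STEAP4 lay near or below the dotted line at 1 RPKM.

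The values of low genes moved in steps of whole reads, from which a total of 19908183 reads was estimated for the MA4-022-1 library and of 27136678 reads for the vehicle library. On the median STEAP2 transcript of 2166.5 nt, 3 reads are then worth 0.0767 RPKM with MA4-022-1 and 0.0562 RPKM with vehicle. All 9 separately listed markers of prostate luminal cells were expressed, 4 with a log2 difference above 0 and 5 below. TMPRSS2 stood at 310 against 251 RPKM and KRT8 at 99.96 against 106 RPKM. HOXB13 was at 31.7 against 54.8 RPKM and KRT18 at 73.6 against 113 RPKM. Only TRPM8 was at least 2-fold lower, at 6.42 against 40.8 RPKM, beside 9.58% of all expressed genes. The 3 basal markers summed to 0.846 against 0.707 RPKM and the 5 blood and endothelial markers to 0.260 against 0.184 RPKM. Of the 4 fibroblast markers only COL1A1 passed 1 RPKM, at 5.03 against 1.19 RPKM, while LUM was listed at 0 in both libraries. The part of these markers in the STEAP values was not tested.

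STEAP2, the member with the full reductase chain that is most abundant here, held 80.9% of the family's summed RPKM with MA4-022-1 and 66.2% with vehicle. Its ratio of RPKM, MA4-022-1 over vehicle, was 1.75, with a 95% counting interval from 1.71 to 1.79. That interval assumes a transcript of median annotated length, which gives 16404 against 12775 reads, and it covers counting error only. On the log2 scale of RPKM + 1 the difference was 0.81. Of 9839 expressed protein-coding genes, 7.39% had a difference at least as high, and so did 45 of the 944 with a mean of 100 RPKM or more. STEAP2 moved up to place 256 by level with MA4-022-1, against place 509 in the vehicle library.

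The STEAP2 sum was made of 3 rows, none of them joined to another symbol. The leading row stood at 412 against 234 RPKM and carried the difference. The other rows stood at 0.885 against 3.25 RPKM and at 6.14 against 2.25 RPKM, and so went in opposite directions. Divided by the 1.36-fold step between single reads of the libraries, their ratios were 0.200 and 2.00, which is 1 read against 5 and 2 reads against 1, or a common multiple of these, to within 0.000188%. Rows of chromosome 7 fell into a pair of runs, and these smaller rows stood in the run where 568 of 590 matched symbols lie on the minus strand, while the leading row stood in the run where 543 of 571 lie on the plus strand, the strand of STEAP2. The files do not state the strand of a row, and the size of the multiple is not fixed, so neither the number nor the source of these reads is known. Without them the log2 difference of STEAP2 was 0.81.

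STEAP2 starts head to head with the antisense RNA gene STEAP2-AS1, and the window around its start is shown because both genes were measured. In the RefSeq promoter table for GRCh38.p14, the STEAP2-AS1 start on the minus strand lies at 90211635 and the STEAP2 start on the plus strand at 90211740 of chromosome 7, so the transcripts run apart. RefSeq holds 2 windows for STEAP2, and only the first listed was examined. Capitals mark the 106 bases from one start to the other in the plus-strand window chr7:90211490-90211789, which reaches from 250 bases before the STEAP2 start to 50 bases after it.
STEAP2: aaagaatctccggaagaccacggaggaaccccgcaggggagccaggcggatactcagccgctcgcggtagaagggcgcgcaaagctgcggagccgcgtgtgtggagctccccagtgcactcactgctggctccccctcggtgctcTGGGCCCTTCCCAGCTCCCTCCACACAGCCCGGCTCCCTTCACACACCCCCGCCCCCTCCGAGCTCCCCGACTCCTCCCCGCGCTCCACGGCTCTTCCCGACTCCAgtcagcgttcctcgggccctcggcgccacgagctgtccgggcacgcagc
A GC box, GGGCGG searched on both strands, matched once within the capitals, a motif held by 15786 (44.95%) of the 35116 windows in the table. STEAP2-AS1 stood at 2.00 against 1.48 RPKM, a log2 difference of 0.28, and shared no run of 50 bases with STEAP2 transcripts in GENCODE release 29. Both symbols had the higher value with MA4-022-1, STEAP2 by more, and the antisense RNA was far less abundant per length in each library. No counting interval was computed for STEAP2-AS1, so whether its values differ beyond counting error was not tested.

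STEAP1, which lacks the NADPH-binding domain, fell on the other side of 0 from its neighbour STEAP2. Its ratio of RPKM was 0.813, with a counting interval from 0.764 to 0.864 at 1660 against 2785 reads, and its log2 difference was -0.30. Differences at least as low were seen in 37.2% of expressed protein-coding genes, whose median was -0.10. The counting intervals of STEAP1 and STEAP2 lay far apart. As a result, STEAP2 exceeded STEAP1 by 4.29 times in RPKM with MA4-022-1, against 1.99 times with vehicle. STEAP1 made up 18.9% of the family's RPKM with MA4-022-1 and 33.2% with vehicle.

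STEAP1 has a close copy on the other arm of chromosome 7, STEAP1B, which limits how well its reads can be placed. The windows around their starts, chr7:90154219-90154518 on the plus strand for STEAP1 and chr7:22500139-22500438 on the minus strand for STEAP1B, are given in the sense direction from RefSeq (GRCh38.p14), because 290 of their 300 bases are the same. Capitals mark the 10 positions at which they differ.
STEAP1: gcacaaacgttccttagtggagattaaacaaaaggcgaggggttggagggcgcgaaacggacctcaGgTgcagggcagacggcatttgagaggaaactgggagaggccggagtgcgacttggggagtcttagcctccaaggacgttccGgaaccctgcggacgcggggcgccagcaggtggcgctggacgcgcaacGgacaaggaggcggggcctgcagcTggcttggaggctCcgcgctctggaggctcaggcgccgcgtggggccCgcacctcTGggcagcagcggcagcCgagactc
STEAP1B: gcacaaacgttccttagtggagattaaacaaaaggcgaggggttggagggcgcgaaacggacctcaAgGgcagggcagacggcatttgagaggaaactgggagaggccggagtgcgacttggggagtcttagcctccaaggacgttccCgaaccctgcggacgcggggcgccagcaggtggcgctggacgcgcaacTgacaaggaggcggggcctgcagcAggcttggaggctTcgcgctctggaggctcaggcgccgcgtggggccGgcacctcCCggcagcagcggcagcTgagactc
STEAP1 stood at 97.8 against 120 RPKM while STEAP1B, with this near-identical window, stood at 0.977 against 0.813 RPKM and stayed below the expression limit. Of the 50-base runs in annotated STEAP1 transcripts, 21.4% also occur in STEAP1B transcripts, so reads of one gene could be counted for the other. The labels do not say how such reads were counted. Other motifs were searched on both strands. They were the CCAAT box, the TATA box as TATAAA, the E-box as CACGTG, an androgen receptor half-site as AGAACA and a forkhead motif as TGTTTAC. In that order they were held by 34.6%, 11.5%, 7.26%, 14.8% and 3.42% of all windows. None of these matched in the windows of the 4 genes, and the GC box matched in those of STEAP2, STEAP3 and STEAP4 but not of STEAP1.

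STEAP3, the endosomal ferrireductase, stood at 1.02 RPKM with MA4-022-1 and 1.85 RPKM with vehicle, or about 57 against 141 reads at its median transcript length. Its ratio of RPKM was 0.550 with a counting interval from 0.398 to 0.755, and on the scale of RPKM + 1, which understates low genes, the log2 difference was -0.50. In GENCODE release 29, 9.83% of its 50-base runs lie opposite its antisense gene STEAP3-AS1, which stood at 0.0666 against 0.147 RPKM. STEAP3 ranked below 92.8% of expressed genes with MA4-022-1 and below 80.3% with vehicle. Its promoter window was the richest in G and C of the 4, at 78.7%, against 66.7% for STEAP1, 70.3% for STEAP2 and 58.7% for STEAP4.

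STEAP4 stood at 0.315 RPKM with MA4-022-1 and 0.189 RPKM with vehicle, above the 0.0707 and 0.0519 RPKM that 3 reads are worth on its median transcript. The reads behind it were about 13 against 11, and the ratio of 1.67 had a counting interval from 0.666 to 3.97, so a difference was not detectable at this depth. With its longest annotated transcript of 9988 nt the interval was 1.13 to 2.47, and the files do not tell which length applies. Opposite its transcripts lies AC003991.1 in GENCODE release 29, with 4.88% of the 50-base runs of STEAP4, and a count without strand could not tell these apart. STEAP4 was thus below 1 RPKM in both libraries, and STEAP3 was 3.22 times as high per length with MA4-022-1 and 9.80 times as high with vehicle.

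**Figure D2:**
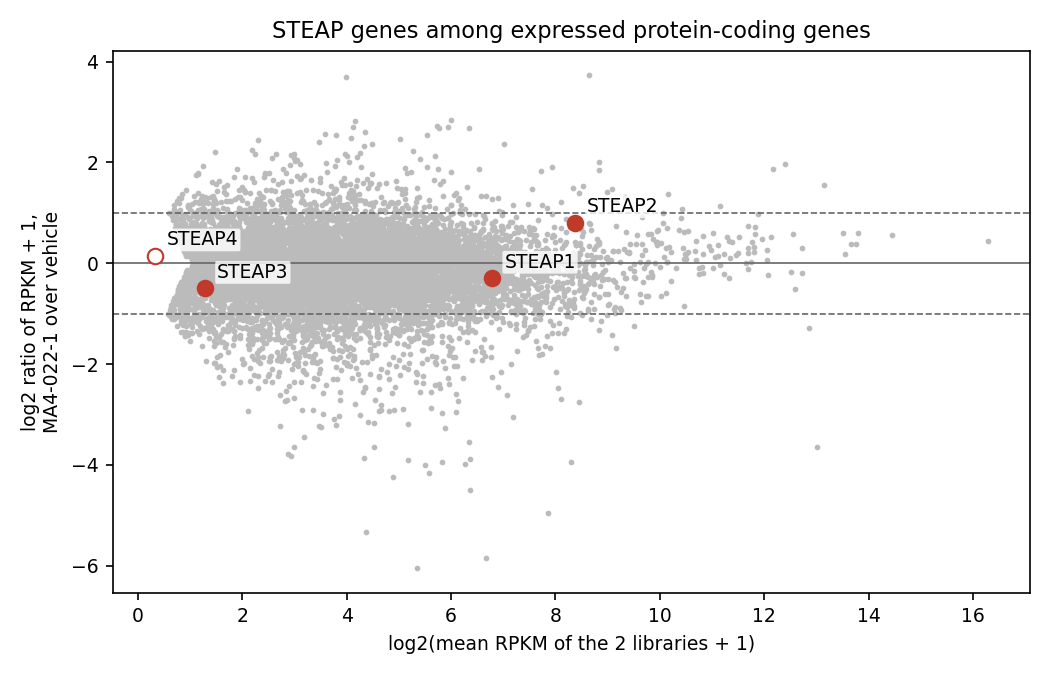
Log2 ratio of RPKM + 1, MA4-022-1 over vehicle, against the log2 mean level of expressed protein-coding genes (grey points), with the STEAP genes in red and STEAP4, below 1 RPKM, as an open circle. The members lie at 0.81 for STEAP2, -0.30 for STEAP1, -0.50 for STEAP3 and 0.15 for STEAP4, all between the dashed lines at 2-fold.

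The deposited tables place STEAP1 and STEAP2 in the same locus, chromosome 7 from 89511667 to 89870091 on hg19, STEAP4 at 87834433 to 87936206 of the same chromosome and STEAP3 at 119981384 to 120023228 of chromosome 2. The locus that STEAP1 and STEAP2 share thus spans more than 1 gene. In RefSeq's gene order the nearest measured protein-coding gene past STEAP2 is C7orf63 (now CFAP69), at 21.4 against 11.1 RPKM, a log2 difference of 0.89. SRI, a calcium-binding protein gene next to STEAP4, stood at 32.5 against 32.3 RPKM, and ZNF804B and C7orf62, between STEAP4 and STEAP1, were listed at 0 in both libraries. GTPBP10, CLDN12 and CDK14 shared 1 joined row at 128 against 117 RPKM. None of the 7 expressed and separately listed neighbours of STEAP1, STEAP2 and STEAP4 passed 2-fold, and their median was -0.31. Next to STEAP3, C2orf76 was 2.22-fold higher at 86.9 against 38.6 RPKM and DBI, an acyl-CoA binding protein gene, stood at 720 against 429 RPKM, while C1QL2 and MARCO were listed at 0.

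**Figure D3:**
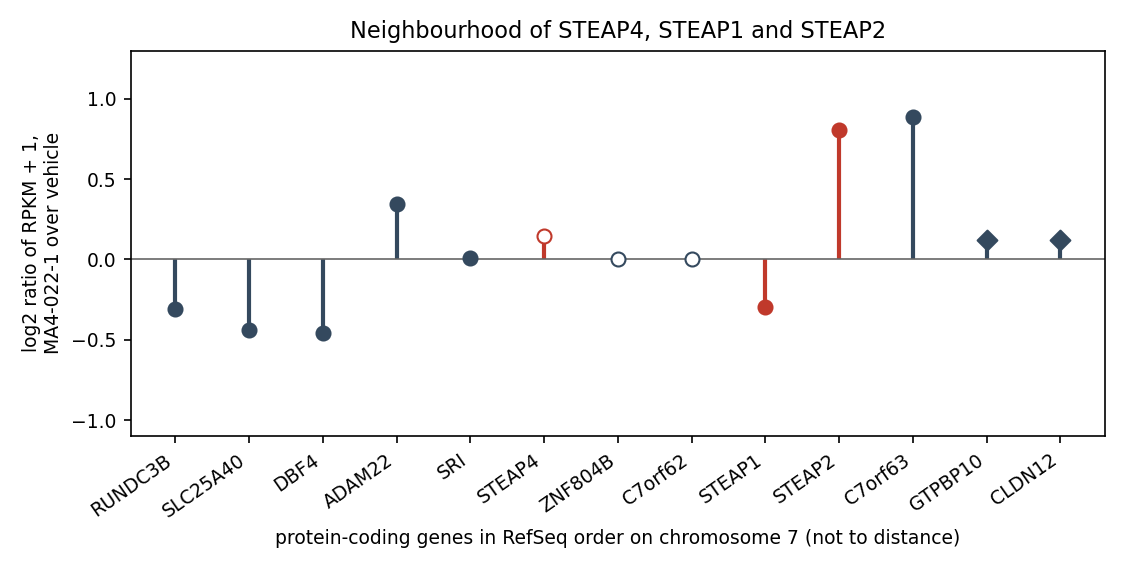
Log2 ratio of RPKM + 1, MA4-022-1 over vehicle, for measured protein-coding genes in RefSeq order along chromosome 7, with STEAP genes in red, open circles for genes below 1 RPKM and diamonds for a joined row. STEAP2 at 0.81 and C7orf63 at 0.89 lie above 0, next to STEAP1 at -0.30.

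The genes most like each member in level over the 2 libraries were found among 8968 other protein-coding genes with a row of their own (8969 for STEAP2), by the distance in log2 of RPKM + 1. For STEAP2 they were SCD, a fatty acid desaturase, at 423 against 246 RPKM, TMEM59 at 425 against 230 RPKM and FTL, the light chain of ferritin, at 403 against 243 RPKM, at distances of 0.04 to 0.06. For STEAP1 they were ADK, adenosine kinase, at 98.4 against 121 RPKM, TCEAL8 and RPRD1A, at distances of 0.01 to 0.05. For STEAP3 they were HYDIN, PTK6 and ITPKC, at 0.03 to 0.04. With only 2 libraries, such a likeness says that both levels are close and nothing more.

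Genes that handle the metal before and after the STEAP step were listed by role. In these lists, counts and medians leave out genes found only in joined rows. Of all expressed genes, 7.72% were at least 2-fold higher with MA4-022-1 and 9.58% at least 2-fold lower, with a median log2 difference of -0.02, and among protein-coding genes these shares were 4.12% and 9.49%. Iron uptake genes had 9 expressed members, 1 of them at least 2-fold higher and 1 lower, with a median of -0.12. TFRC, the transferrin receptor whose cargo endosomal STEAP proteins reduce, stood at 234 against 254 RPKM. SLC11A2, which carries the reduced iron out of the endosome, stood at 33.1 against 49.5 RPKM, and SLC39A14 and SLC39A8, which also carry iron, at 18.1 against 28.3 and 128 against 98.5 RPKM. The members past 2-fold were both scarce, LRP1, a haemopexin receptor, at 2.14 against 0.482 RPKM and TFR2, the other transferrin receptor, at 0.894 against 2.87 RPKM. TFR2 was within 2-fold, at -0.92, with the control genes set to 0.

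Iron storage, export and haem breakdown had 11 expressed members with a median of 0.11, none at least 2-fold higher and 1 lower. The ferritin genes were the most abundant of them, FTH1 at 1416 against 708 RPKM, just inside 2-fold, and FTL at 403 against 243 RPKM. Ferritin genes have many processed copies in the genome, which makes the placing of their reads, and hence these values, uncertain. NCOA4, the receptor that takes ferritin to autophagy, stood at 124.7 against 124.8 RPKM and the iron exporter SLC40A1 at 2.49 against 2.24 RPKM. HMOX1, which breaks down haem, was the lower member at 4.97 against 11.2 RPKM. Both calls at this limit turn with the scaling: with the median of genes of 1 RPKM or more set to 0, FTH1 passed 2-fold at a log2 difference of 1.03 and HMOX1 no longer did at -0.9987, and with the control genes set to 0 they stood at 1.11 and -0.92. In the list of iron sensing, ACO1 and IREB2, the iron regulatory proteins, stood at 16.5 against 13.9 and 25.9 against 23.9 RPKM. NEO1, a hepcidin pathway co-receptor, was the 1 of 4 expressed members past 2-fold, 3.23-fold higher at 22.5 against 6.27 RPKM, and the median was 0.18.

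The other haem-type reductases of iron and copper, of the cytochrome b561 family, had 5 expressed members, all within 2-fold. CYB561 was the most abundant at 56.3 against 89.2 RPKM, CYBASC3 (now CYB561A3) stood at 25.4 against 26.2 RPKM, and CYBRD1, the duodenal ferrireductase, at 0.502 against 0.456 RPKM. STEAP2 and STEAP1 therefore stood above each of them in both libraries. The list of NADPH oxidases, which share the transmembrane haem fold of the family, also held partner proteins without it. Its 4 expressed members among those listed separately, NOX4, DUOX1, NOXA1 and RAC1, were all within 2-fold. Of these RAC1, a GTPase that activates the oxidases, was at 66.3 against 73.2 RPKM and the catalytic NOX4 at 4.44 against 4.64 RPKM. NOX5, found only in a joined row, was past 2-fold lower at 0.331 against 1.87 RPKM. The value of that row is not of NOX5 alone, and it would lie just within 2-fold with the control genes set to 0.

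For the cofactors, RNA levels of NADPH and FAD supply genes were read, and the supply itself was not measured. All 8 genes of cytosolic NADPH supply lay within 2-fold, with a median of -0.10, and IDH1, the most abundant, stood at 342 against 401 RPKM. Of the 5 expressed genes of FAD supply, all within 2-fold, RFK, the riboflavin kinase, stood at 30.8 against 37.7 RPKM and FLAD1, which makes FAD, at 11.6 against 16.9 RPKM, with a median of -0.51. Copper genes had 9 expressed members, all within 2-fold, with a median of -0.10. SLC31A1, the importer of reduced copper, stood at 20.6 against 30.01 RPKM, the exporter ATP7A at 30.4 against 54.1 RPKM, and the chaperones ATOX1 and CCS at 94.5 against 59.2 and 39.1 against 22.1 RPKM. The medians of the copper and NADPH lists turned to 0.011 and 0.0063 when the median of 8 control genes was set to 0, and that of the copper list was also above 0 under other filters on low values.

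Of all expressed protein-coding genes, 55.8% lay below 0, beside which the genes that build iron into cofactors are given. In the mitochondrial list of iron import, iron-sulphur and haem synthesis, 4 members stood only in joined rows and were not counted. Of the 22 expressed and separately listed members, 14 lay below 0, with 2 past 2-fold on that side, none on the other, and a median of -0.19. They were FDXR, ferredoxin reductase, at 11.2 against 27.4 RPKM and HSPA9, a mitochondrial chaperone, at 290 against 645 RPKM, while FECH, which inserts iron into haem, stood at 186 against 238 RPKM. In the cytosolic assembly list, 8 of 10 members lay below 0 and the median was -0.46, but only FAM96A, a targeting factor, passed 2-fold at 41.2 against 127 RPKM. GLRX3 and CIAPIN1 stood at 29.5 against 55.9 and 54.9 against 91.7 RPKM. With equal sums of RPKM, GLRX3 at -1.01 and FDX1, a mitochondrial ferredoxin, at -1.04 were also past 2-fold. So was SCO1 of the copper list at -1.04.

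**Figure D4:**
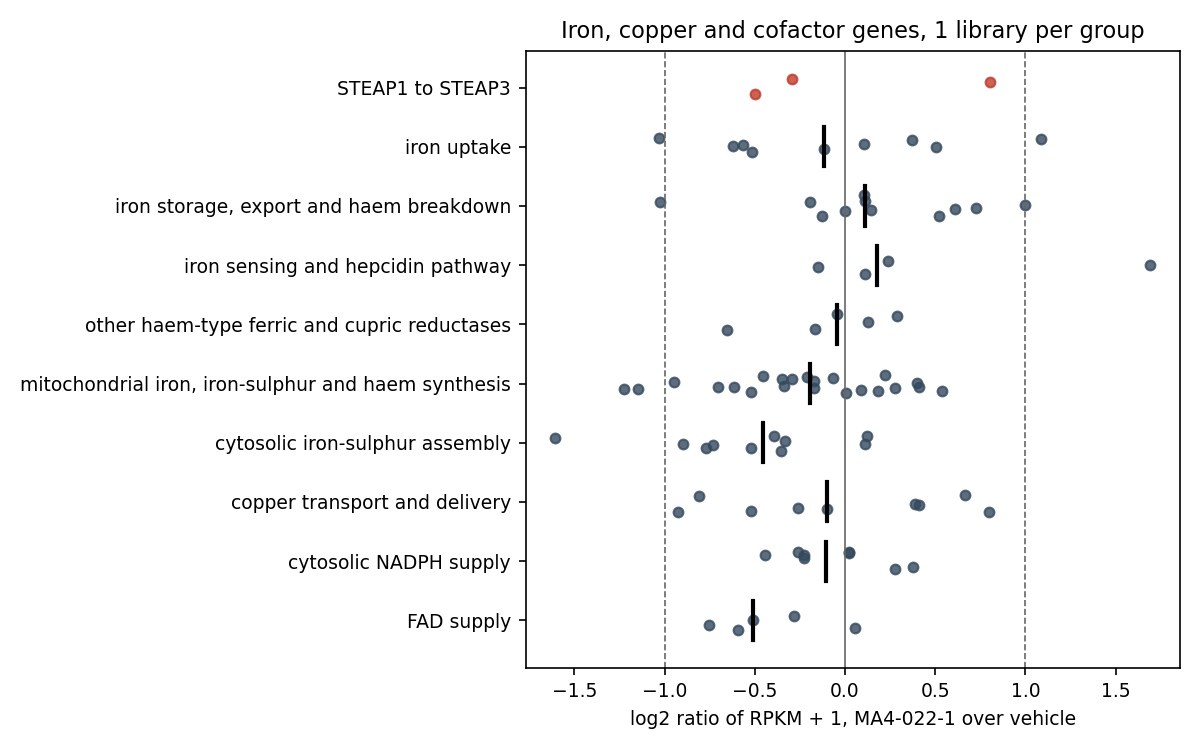
Log2 ratio of RPKM + 1, MA4-022-1 over vehicle, for the 3 expressed STEAP genes (red) and the expressed members of the iron, copper and cofactor lists (dark points), with a black bar at each list's median and dashed lines at 2-fold. List medians run between -0.51 for FAD supply and 0.18 for iron sensing, and STEAP2 lies above each of them.

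As STEAP1 is used as a surface target in prostate cancer, other antigens so used were set beside it. FOLH1, which encodes PSMA, stood at 488 against 615 RPKM and EPCAM at 118 against 155 RPKM. CD276 was at 14.2 against 10.3 RPKM and DLL3 at 3.60 against 7.57 RPKM. CD46 stood at 200 against 145 RPKM. PSCA was the 1 of 9 expressed, separately listed members past 2-fold, at 0.617 against 2.58 RPKM, and none was at least 2-fold higher. ERBB3, found only in a joined row, was just past 2-fold lower at 139 against 280 RPKM, a log2 difference of -1.01. The value of that row is not of ERBB3 alone. It would lie within 2-fold with the control genes, or the median of genes of 1 RPKM or more, set to 0. STEAP1 and FOLH1 were thus both below their vehicle levels and within 2-fold, whereas STEAP2 was above its vehicle level.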

How the data were processed

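The authors deposited 1 table of RPKM per library, per the file headers, with 62271 rows of locus, symbol and value in the same order. The submitters' processing notes name hg19, Cufflinks 2.2.1 and TopHat2 2.0.13, without their roles; annotation and strand setting are not given in the sources used here. RPKM are normalised values, so no count test was run. Rows without a symbol (2751, with 23.3% of summed RPKM with MA4-022-1 and 29.6% with vehicle) and short RNA symbols were left out, rows of a symbol were summed, and 1635 joined rows kept their joint name. Locus starts were raised by 1, since they count from 0.

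Differences are log2 of RPKM + 1, MA4-022-1 over vehicle, with a limit of 2-fold. Genes were called protein coding by their symbol in GENCODE release 29. Joined rows and symbols not used in that release, such as C7orf63, were thus left out of the protein-coding shares. The deposited scale was kept, since genes averaging at least 1 RPKM centred at -0.03 (median log2 ratio), inside a limit of 0.1. Totals came from 708 single-exon processed pseudogenes of 600 to 6000 nt, where 140 of 142 values of up to 5 reads with MA4-022-1 and 183 of 185 with vehicle lay within 2% of a whole read at an effective length shortened by 201 nt. Counting intervals are exact (Clopper-Pearson), at GENCODE release 29 lengths, and leave out PCR duplicates and the spread between cultures. Both steps were tested on simulated data. Members and lists were chosen with earlier results of these data known. By rule the text names all members, any gene of the relative, reductase, neighbour and uptake lists, in other lists the genes past 2-fold and up to 4 of the highest level, and the 3 genes nearest in level to each expressed member. Other listed genes were named for their role after their values were seen. Alternatives were other pseudocounts, scalings, filters, thresholds and the leading row alone. Python 3.11.15, numpy 2.4.6, pandas 2.3.3, scipy 1.17.1 and matplotlib 3.10.9 were used.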

Additional observations from a re-analysis of the deposited data

How the results depend on the processing

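The 4 STEAP genes kept their direction and stayed within 2-fold under all 7 alternatives, with log2 differences from -0.41 to -0.19 for STEAP1, 0.69 to 0.91 for STEAP2, -0.80 to -0.19 for STEAP3 and 0.03 to 0.53 for STEAP4. With equal sums over the genes kept, which lowers abundant genes by 0.12 (log2) and scarce ones by less, STEAP1 stood at -0.41 and STEAP2 at 0.69, and with the control genes set to 0, which raises them by 0.11 (control median -0.11), at -0.19 and 0.91. Genes at least 2-fold higher made up 44.6% of those past 2-fold, against 36.3% with equal sums and 56.3% with the control genes. The counts of genes higher and lower, 1192 and 1478, were 439 and 661 with a pseudocount of 5, 2905 and 3190 at 1.5-fold and 209 and 290 at 4-fold, and the count higher was 1954 with a pseudocount of 0.1 and 742 with a filter of 5 RPKM. List medians with equal sums were -0.23 for iron uptake, 0.064 for iron sensing, -0.31 for the mitochondrial list and -0.22 for NADPH supply. With the control genes they were -0.0076 for iron uptake, 0.22 for storage, 0.28 for sensing, -0.083 for the mitochondrial list, -0.35 for cytosolic assembly, 0.011 for copper and 0.0063 for NADPH supply. Without the filter the median was 0.043 for sensing and 0.11 for copper, and with the filter of 5 RPKM it was -0.0050 for uptake and 0.062 for copper, where the members counted differ. No paired analysis was possible because each group holds 1 library. Depth limits STEAP4 most, with about 13 against 11 reads.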
